A study of Mus musculus with 12 samples.

Results

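The genes studied here were 10 antioxidant and cytoprotective genes that the transcription factor NRF2 (encoded by Nfe2l2) is known to drive: Hmox1, Nqo1, Gclm, Gclc, Txnrd1, Srxn1, Slc7a11, Gsr, Prdx1 and Me1. They were taken by gene symbol from the count and FPKM tables of an RNA-seq experiment in mouse bone marrow macrophages (BMMs). Each symbol matched 1 row, so the set holds 10 of the 54532 genes in the tables, of which 27574 had a count in at least 1 library. FPKM, which scales the fragments on a gene by its length and by the size of the library, allows levels to be compared between genes. Such comparisons rest on the gene lengths used, which ran from 1553 bases for Nqo1 to 13922 for Slc7a11. All 10 genes passed the filter on low counts in every comparison.

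BMMs were grown from the marrow of wild-type C57BL/6J mice aged 2 to 3 months in medium with 15% fetal serum, with 12 ng/ml CSF-1 for 24 h and 120 ng/ml CSF-1 for a further 48 h. The adherent cells were passaged to plates left uncoated or coated overnight with fibronectin, a matrix protein that binds the integrin α5β1, and were then given IgG or a neutralizing antibody to ITGA5, the α5 chain, at 10 µg/ml over 24 h. Antibody and coating were crossed, which gave 4 groups of 3 libraries, called IgG or anti-ITGA5 and with or without fibronectin. The antibody was applied to cultured cells, so no gene was deleted in any group. All groups carried CSF-1 and serum, and serum itself contains fibronectin. The study describes its replicates as independent experiments, but the labels do not tie a library to an animal or a culture, and p-values measure the spread between these libraries.

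NRF2 is held low by KEAP1, an adaptor that hands it to a ubiquitin ligase. When electrophiles or oxidants modify KEAP1, NRF2 is spared, pairs with a small MAF protein and binds antioxidant response elements near its target genes. BACH1 competes for these elements and represses Hmox1 in particular until heme releases it. In macrophages the NRF2 targets clear the heme and iron of engulfed red cells, keep glutathione and thioredoxin reduced and limit the peroxide that the cells make themselves.

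Library totals ran from 12954342 to 22075432 counts on genes, and mitochondrial genes held 1.14% to 1.41% of them. Counting error alone would give a chi-square of about 1 per gene between replicates. The observed values were 2.79 to 8.13 in 3 groups and 11.4 to 25.6 in anti-ITGA5 without fibronectin, whose replicate 2 was the smallest library. The libraries carried macrophage markers, with a summed FPKM over 7 genes of 5991 to 9715. Markers of neutrophils (7 genes) summed to 1.86 to 4.52 FPKM, with Ly6g at 0 in all 12 libraries. Fibroblast markers (6 genes) summed to at most 0.378, dendritic cell markers (5 genes) to at most 0.213 and lymphocyte markers (6 genes) to at most 0.481.

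Resting levels differed widely between the 10 genes. In IgG without fibronectin, Hmox1, which opens the heme ring, had the highest mean at 1710.3 FPKM ± 270.3 (SD, n = 3), followed by the peroxide-reducing enzyme Prdx1 at 613.6 ± 35.4. Txnrd1, thioredoxin reductase, stood at 84.5 ± 0.828 and Gsr, glutathione reductase, at 66.9 ± 1.69. Srxn1, which repairs overoxidized peroxiredoxins, was at 63.9 ± 2.23. The modifier subunit of glutamate-cysteine ligase, Gclm, followed at 56.1 ± 3.9 and the catalytic subunit, Gclc, at 27.3 ± 1.5. The quinone reductase Nqo1 was low at 9.38 ± 1.21, and Me1, a cytosolic source of NADPH, and Slc7a11, the cystine importer, were lowest at 2.37 ± 0.268 and 2.06 ± 0.606. The libraries of Gsr and Srxn1 overlapped, as did those of Me1 and Slc7a11, and the other neighbours in this order did not overlap. The order was the same in the other groups except that Srxn1 stood above Gsr there, without overlap only in anti-ITGA5 with fibronectin.

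Promoter sequence was available in the RefSeq table (GRCm38.p6) for 7 of the 10 genes, as 10 windows of 300 bases from 250 before to 50 after a start site. Hmox1, Gclc and Gsr had no entry. The windows were searched on both strands for TGACTCAGC or TGAGTCAGC, the core of the antioxidant response element with the bases that small MAF contacts, which 0.822% of all 32851 windows hold. They were also searched for the looser core TGACNNNGC or TGAGNNNGC, which includes those letters and occurs in 27.8% of windows, and for TGATGCAAN, the amino acid response element bound by ATF4, in 0.889%. The strict core was in the windows of Prdx1 and Srxn1 and in 1 window of Me1, whose other window held none of the motifs. The amino acid response element was in the window of Slc7a11. The 4 stretches are printed because Prdx1, Srxn1 and Me1 share the strict core while only Prdx1 passed the antibody test below, and because Slc7a11 holds the amino acid response element. Each runs 5′ to 3′ along its gene from 180 bases before to 20 after the start site and has the strict core or the amino acid response element in capitals. They lie at chr4:116685419-116685618 on the plus strand, chr2:152105344-152105543 on the plus strand, chr9:86695895-86696094 on the minus strand and chr3:50443594-50443793 on the minus strand.
Prdx1: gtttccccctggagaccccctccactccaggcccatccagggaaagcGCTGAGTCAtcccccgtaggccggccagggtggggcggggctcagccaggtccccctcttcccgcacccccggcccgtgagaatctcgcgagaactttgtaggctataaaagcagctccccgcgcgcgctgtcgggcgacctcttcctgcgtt
Srxn1: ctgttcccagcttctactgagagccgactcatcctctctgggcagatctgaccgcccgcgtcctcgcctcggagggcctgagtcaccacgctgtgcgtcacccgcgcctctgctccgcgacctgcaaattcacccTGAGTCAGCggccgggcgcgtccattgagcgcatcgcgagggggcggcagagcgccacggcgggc
Me1: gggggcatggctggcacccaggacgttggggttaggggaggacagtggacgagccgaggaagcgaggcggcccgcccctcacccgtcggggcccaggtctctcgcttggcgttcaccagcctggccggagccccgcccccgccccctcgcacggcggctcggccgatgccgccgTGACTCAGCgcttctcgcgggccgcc
Slc7a11: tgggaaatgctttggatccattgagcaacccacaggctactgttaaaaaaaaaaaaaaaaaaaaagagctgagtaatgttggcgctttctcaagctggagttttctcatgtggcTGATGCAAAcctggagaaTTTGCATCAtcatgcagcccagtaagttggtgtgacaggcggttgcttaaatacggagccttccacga
The match began 133 bases before the start site in Prdx1, where it lies on the opposite strand, 45 before in Srxn1 and 6 before in Me1. Slc7a11 held 2 copies of the amino acid response element that face each other, beginning 66 and 48 bases before the start, and a looser match to the antioxidant response element 97 bases before it. Gclm had only a looser match, 134 bases before its start, Txnrd1 had a looser match in 1 of its 3 windows, and the letters searched were not in the Nqo1 window. A match describes the letters and not a bound site, and the motifs were chosen with the results known. Sequence outside the windows was not searched, so a window without a match does not show that the gene lacks the element.

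ITGA5 neutralization was first compared with IgG without fibronectin, to ask which of the 10 genes depend on ITGA5 in cells on uncoated plates. Hmox1, Nqo1, Gclm, Prdx1 and Gsr fell, and no member rose. Nqo1 fell most, by 0.83 on the log2 scale, a change of -43.9%, and Gsr least, by 0.21. Gclc, Txnrd1, Srxn1, Slc7a11 and Me1 did not pass the test. Thus 5 of 10 genes were called lower by the edgeR quasi-likelihood test (adjusted p of 0.05 or less) where 9.79% of all 12924 genes tested were called lower and 11.0% higher. The median log2 fold change was -0.36 over the 10 genes and 0.01 over all genes. In bulk RNA, fewer cells with a transcript and less transcript per cell cannot be told apart. The count was also 5 without replicate 2 of anti-ITGA5 without fibronectin, the library that differed most from its replicates.

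With fibronectin, the same comparison asks whether the dependence is seen when the ligand is supplied. The 5 genes that fell without fibronectin fell again, Slc7a11 was called lower as well, and no member rose. These 6 of 10 genes compare with 13.2% of 12916 genes called lower and 14.4% called higher. The median log2 fold change was -0.45 over the 10 genes and -0.00377 over all genes. Txnrd1, Srxn1, Gclc and Me1 did not pass the test on fibronectin either.

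**Figure D1:**
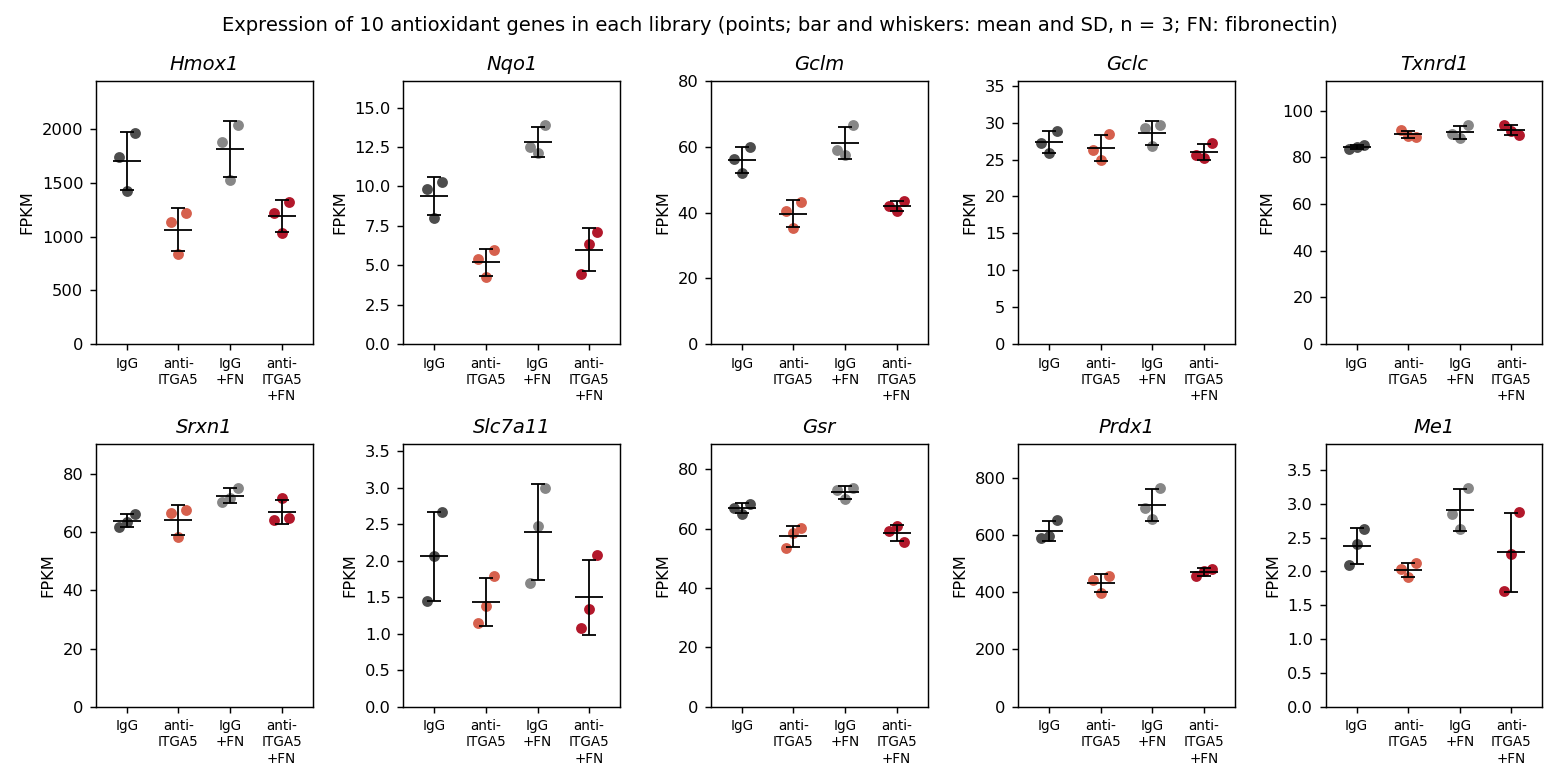
FPKM of each of the 10 genes (vertical axes, from 0) in the 4 groups (horizontal axes; FN, fibronectin), with a point per library in order of replicate number and the mean and SD of 3 libraries. The IgG and anti-ITGA5 libraries are apart for Hmox1, Nqo1, Gclm, Gsr and Prdx1 on either plate, while Gclc, Srxn1, Slc7a11 and Me1 overlap on either plate.

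The FPKM of the 3 IgG libraries lay wholly above the 3 anti-ITGA5 libraries for 5 genes on either plate, namely Hmox1, Nqo1, Gclm, Gsr and Prdx1. Among all genes tested, 19.4% had such separated groups in this direction without fibronectin and 20.6% with it. Txnrd1 alone was separated in the other direction, without fibronectin, where 18.7% of genes were. An exact 2-sided permutation test of 3 against 3 libraries cannot go below p = 0.10, and each separated gene had that p.

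Hmox1 (chr8:75093621-75100589, plus strand, GRCm38), encoding the inducible heme oxygenase, measured 1740.5, 1426 and 1964 FPKM in IgG without fibronectin and 1135.5, 840.3 and 1219 in anti-ITGA5 without fibronectin. On fibronectin the values were 1879, 1534 and 2043 in IgG and 1222, 1033.5 and 1325 in anti-ITGA5. All 6 IgG libraries were above all 6 anti-ITGA5 libraries, and replicate 2 was the lowest in each group. Hmox1 fell by 0.68 (log2; SE 0.132, adjusted p = 0.00479 by edgeR) without fibronectin and by 0.61 (SE 0.0979, adjusted p = 0.000602) with it. With limma on unfiltered log2(FPKM + 1) the calls were lost, at adjusted p = 0.297 and 0.08.

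Its neighbours in heme and iron handling were followed as a list of 7 genes, of which 4 fell in each antibody comparison and none rose, with median log2 fold changes of -0.36 and -0.33. Beside this list and those below, 9.79% and 13.2% of all genes tested were called lower in the antibody comparisons and 11.0% and 14.4% higher. Ftl1 and Fth1, the light and heavy chains of the iron store ferritin, fell by 0.52 and 0.58 on the log2 scale without fibronectin and by 0.49 and 0.43 with it. Blvrb, a biliverdin reductase, fell by 0.40 and 0.53, and the heme transporter Slc48a1 by 0.36 and 0.33. Ftl1 and Fth1 were among the most abundant transcripts, with means of 6790 FPKM ± 261 and 19831 ± 99.3 in IgG without fibronectin against 4706 ± 303 and 13214 ± 1187 in anti-ITGA5 without fibronectin (n = 3 each). Ferritin genes have pseudogene copies, to which some of their reads may have been assigned. Hmox2, the constitutive heme oxygenase, had log2 fold changes of -0.06 and -0.07, with adjusted p = 0.578 and 0.311 in the edgeR test.

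Nqo1 (chr8:107388225-107403206, minus strand) showed the largest fitted change of the 10 genes in either antibody comparison. Its FPKM values were 9.84, 8.01 and 10.3 in IgG without fibronectin and 5.39, 4.25 and 5.93 in anti-ITGA5 without fibronectin. On fibronectin they were 12.5, 12.1 and 13.9 in IgG and 4.45, 6.37 and 7.09 in anti-ITGA5. The lowest IgG library was above the highest anti-ITGA5 library, and the IgG libraries with fibronectin were above those without it. Nqo1 fell by 0.83 (SE 0.135, adjusted p = 0.0017) without fibronectin and by 1.11 (SE 0.138, adjusted p = 8.91e-05) with it, a change of -53.7%. These levels rest on 91 to 410 counts per library.

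Of the subunits of the rate-limiting enzyme of glutathione synthesis, Gclm fell on either plate and Gclc did not pass the test. Gclm (chr3:122245557-122270732, plus strand), the modifier subunit, was at 56.2, 52.1 and 59.9 FPKM in IgG and 40.6, 35.3 and 43.2 in anti-ITGA5 without fibronectin, and at 59.0, 57.6 and 66.7 in IgG and 41.9, 40.4 and 43.4 in anti-ITGA5 with it. No anti-ITGA5 library reached an IgG library. The fall of Gclm was 0.49 (SE 0.0749, adjusted p = 0.00115) without and 0.55 (SE 0.0552, adjusted p = 1.92e-05) with fibronectin. Gclm shares exon bases with an antisense transcript, Gm17494, that had 10 to 30 counts per library against 3059 to 7889 for Gclm.

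Gclc (chr9:77754535-77794485, plus strand), the catalytic subunit, was at 27.2, 25.9 and 28.9 FPKM in IgG and 26.3, 25.0 and 28.5 in anti-ITGA5 without fibronectin. With fibronectin it was at 29.3, 26.8 and 29.7 in IgG and 25.6, 25.2 and 27.2 in anti-ITGA5. The groups overlapped on either plate. Its log2 fold changes were -0.03 (SE 0.0627, adjusted p = 0.769) and -0.14 (SE 0.0531, adjusted p = 0.0704). The second passed the threshold without replicate 2 of IgG with fibronectin (adjusted p = 0.0296) or without replicate 3 of anti-ITGA5 with fibronectin (adjusted p = 0.0251). It also passed with replicate number as a block in the edgeR fit (adjusted p = 0.0174). The first changed sign without replicate 3 of IgG without fibronectin (0.00983) or replicate 2 of anti-ITGA5 without fibronectin (0.00397).

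The ratio of Gclm to Gclc FPKM, formed after these values were seen and given without a test, was 2.05 ± 0.0346 in IgG and 1.49 ± 0.0721 in anti-ITGA5 without fibronectin. On fibronectin it was 2.14 ± 0.121 and 1.61 ± 0.0265. The highest ratio in any anti-ITGA5 library was 1.64 and the lowest in any IgG library was 2.01. The ratio cancels the total used to scale a library.

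**Figure D2:**
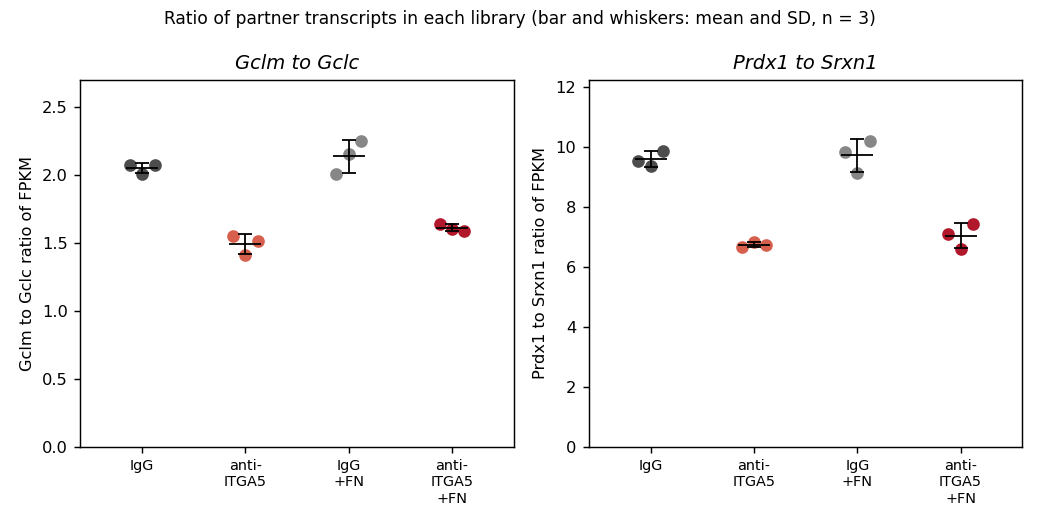
Ratio of the FPKM of partner transcripts in each library (points, in order of replicate number), with the mean and SD of 3 libraries per group; vertical axes start at 0 and FN is fibronectin. Gclm to Gclc is at least 2.01 in the IgG libraries and at most 1.64 in the anti-ITGA5 libraries, and Prdx1 to Srxn1 is at least 9.13 and at most 7.43.

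Slc7a11 (chr3:49892526-50443614, minus strand), which imports the cystine used to make glutathione, was near the lower end of the range. It measured 1.45, 2.06 and 2.66 FPKM in IgG and 1.14, 1.38 and 1.79 in anti-ITGA5 without fibronectin, and 1.69, 2.47 and 3.00 in IgG and 1.08, 1.34 and 2.07 in anti-ITGA5 on fibronectin. The library numbered 1 was lowest and that numbered 3 highest in every group, and the groups overlapped. The log2 fold change was -0.51 (SE 0.207, adjusted p = 0.111) without fibronectin, and Slc7a11 fell by 0.69 (SE 0.217, adjusted p = 0.0331) with it. The call on fibronectin was lost with DESeq2 (adjusted p = 0.171), with all 12 libraries in one fit (adjusted p = 0.0602) and with limma (adjusted p = 0.14 to 0.31). It was also lost when any of 4 libraries was left out: replicate 2 (adjusted p = 0.079) or 3 (0.14) of IgG with fibronectin, or replicate 1 (0.148) or 2 (0.103) of anti-ITGA5 with fibronectin. Without fibronectin the gene was instead called lower when replicate 1 of IgG (adjusted p = 0.0374) or replicate 3 of anti-ITGA5 (0.0348) was left out, and when every gene with at least 1 count was tested (2.85e-06). It was called lower there too with replicate number as a block in the edgeR fit (adjusted p = 0.00166).

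Slc3a2, the heavy chain that Slc7a11 pairs with, had log2 fold changes of 0.15 (adjusted p = 0.249) without fibronectin and 0.18 (adjusted p = 0.0148, edgeR, called higher) with it. Slc7a11 is a target of ATF4 as well as of NRF2, and its promoter stretch above carries the facing amino acid response elements. Of 10 ATF4 pathway genes, 7 rose and 1 fell without fibronectin, and 6 rose and 1 fell with it, with list medians of 0.73 and 0.58. The amino acid transporter Slc7a5 rose by 1.72 and 1.63 on the log2 scale and Phgdh, which opens serine synthesis, by 1.33 and 1.68. Asns, asparagine synthetase, rose by 0.78 and 0.70 and Atf4 itself by 0.77 and 0.59. The member of that list that fell was Sesn2, by 0.63 and 0.48.

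Gsr (chr8:33652523-33698163, plus strand), which returns oxidized glutathione to its reduced form, was at 67.0, 65.1 and 68.5 FPKM in IgG and 53.4, 58.7 and 60.2 in anti-ITGA5 without fibronectin. With fibronectin it was at 73.2, 69.9 and 73.9 in IgG and 59.4, 60.9 and 55.5 in anti-ITGA5. The groups did not overlap. Gsr fell by 0.21 (SE 0.0586, adjusted p = 0.0263) without fibronectin and by 0.30 (SE 0.0461, adjusted p = 0.000405) with it. The call without fibronectin was lost with total counts in place of TMM scaling (adjusted p = 0.0655). It was lost as well without replicate 1 (0.108), 2 (0.0623) or 3 (0.111) of IgG or replicate 1 of anti-ITGA5 (0.122).

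Of 14 further genes of glutathione use, 13 were tested; 6 fell and none rose without fibronectin, and 7 fell and 1, Slc3a2, rose with it. The list medians were -0.17 and -0.21. The transferase Gsta3 fell by 1.15 and 1.56 on the log2 scale, from 3.39 FPKM ± 0.23 to 1.51 ± 0.369 on uncoated plates and from 4.19 ± 0.667 to 1.42 ± 0.0756 on fibronectin (n = 3 each). The transferases Gstm1, Gstp1 and Mgst1 fell by 0.63, 0.62 and 0.60 without fibronectin and by 0.51, 0.45 and 0.56 with it. Gstp1 belongs to a family of near-identical copies, and reads may have been divided among them.

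In the thioredoxin system Prdx1 fell on either plate, whereas Srxn1 and Txnrd1 did not pass the test. Prdx1 (chr4:116685544-116700822, plus strand), which reduces peroxides with electrons from thioredoxin, was at 590.8, 595.6 and 654.4 FPKM in IgG and 442.6, 398.4 and 456.4 in anti-ITGA5 without fibronectin. With fibronectin it was at 693.9, 655.4 and 766.2 in IgG and 457.4, 474 and 483 in anti-ITGA5. Every IgG library was above every anti-ITGA5 library. Prdx1 fell by 0.50 (SE 0.0615, adjusted p = 3e-04) and by 0.58 (SE 0.0531, adjusted p = 1.04e-05), and the first call was lost with limma on unfiltered log2(FPKM + 1) (adjusted p = 0.0588).

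Srxn1 (chr2:152105516-152111376, plus strand), sulfiredoxin, acts on Prdx1 and shares the strict core with it in the stretches printed above. Its FPKM was 61.9, 63.6 and 66.3 in IgG and 66.5, 58.4 and 67.8 in anti-ITGA5 without fibronectin, and 70.6, 71.8 and 75.4 in IgG and 64.4, 71.8 and 65.0 in anti-ITGA5 on fibronectin. The groups overlapped on either plate. The log2 fold changes were 0.01 (SE 0.0603, adjusted p = 0.911) and -0.12 (SE 0.0501, adjusted p = 0.106). Without fibronectin the sign turned when replicate 1 of IgG (-0.0117) or replicate 1 (-0.00713) or 3 (-0.0289) of anti-ITGA5 was left out. With fibronectin the gene was called lower without replicate 2 of anti-ITGA5 (adjusted p = 0.0232) and with replicate number as a block in the edgeR fit (adjusted p = 0.0345). The ratio of Prdx1 to Srxn1 FPKM, again formed after the values were seen, was 9.59 ± 0.254 and 6.74 ± 0.0802 without fibronectin and 9.72 ± 0.543 and 7.04 ± 0.418 with it, IgG first.

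Txnrd1 (chr10:82833951-82897712, plus strand), which reduces thioredoxin with NADPH, varied little between replicates, with an SD of 0.98% to 3.22% of its mean. A gene within its introns, Eid3, had 45 to 133 counts per library against 8708 to 13617 for Txnrd1. Txnrd1 measured 83.7, 84.3 and 85.3 FPKM in IgG and 91.6, 89.2 and 88.8 in anti-ITGA5 without fibronectin, and 89.9, 88.3 and 94.0 in IgG and 94.0, 91.2 and 89.8 in anti-ITGA5 on fibronectin. The anti-ITGA5 libraries were higher without overlap on uncoated plates and overlapped on fibronectin. Its log2 fold changes of 0.10 (SE 0.0477, adjusted p = 0.192) and 0.01 (SE 0.0392, adjusted p = 0.833) did not pass the test. The sign of the second turned without replicate 2 of IgG with fibronectin (-0.0117) or replicate 1 of anti-ITGA5 with fibronectin (-0.00227).

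Of 10 further thioredoxin and peroxiredoxin genes, 2 fell and 2 rose in each antibody comparison, and the list medians were -0.03 and -0.05. Prdx6 and Prdx5 fell, by 0.81 and 0.41 on the log2 scale without fibronectin and by 0.72 and 0.41 with it. The mitochondrial Prdx3 and the endoplasmic reticulum enzyme Prdx4 rose, by 0.24 and 0.21 without fibronectin and by 0.34 and 0.27 with it. Txn1, the cytosolic thioredoxin, had log2 fold changes of 0.01 and -0.08, with adjusted p = 0.929 and 0.33 by edgeR.

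Me1 (chr9:86581371-86695953, minus strand), the cytosolic malic enzyme, was low and variable. Its FPKM was 2.09, 2.41 and 2.62 in IgG and 2.04, 1.91 and 2.12 in anti-ITGA5 without fibronectin, and 2.85, 2.63 and 3.24 in IgG and 1.71, 2.25 and 2.88 in anti-ITGA5 on fibronectin. The groups overlapped on either plate, and the values rest on 101 to 231 counts. Me1 had log2 fold changes of -0.22 (SE 0.119, adjusted p = 0.218) and -0.36 (SE 0.161, adjusted p = 0.119). It was called lower on fibronectin without replicate 3 of anti-ITGA5 with fibronectin (-0.55, adjusted p = 0.00693) and when every gene with at least 1 count was tested (adjusted p = 0.0232). Replicate number as a block in the edgeR fit also gave a lower call on fibronectin (adjusted p = 0.0156).

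Among 9 enzymes of the pentose phosphate pathway and other routes to NADPH, 4 fell and 2 rose without fibronectin, and 5 fell and 2 rose with it, with list medians of -0.10 and -0.12. Taldo1 and Pgd, of the pentose phosphate pathway, fell by 0.57 and 0.37 on the log2 scale without fibronectin and by 0.66 and 0.43 with it. The cytosolic Idh1 fell by 0.50 and 0.56, whereas the mitochondrial Idh2 rose by 0.53 and 0.49. G6pdx, the entry enzyme of the pathway, had log2 fold changes of -0.07 and -0.04, with adjusted p = 0.365 and 0.508 by edgeR.

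Of 4 superoxide and peroxide enzymes, 3 were tested. Catalase (Cat) fell by 0.53 and 0.56 on the log2 scale and the mitochondrial Sod2 rose by 0.19 and 0.23, while Sod1 was called lower only in the comparison with fibronectin (-0.19, adjusted p = 0.0128, against -0.02, adjusted p = 0.898, by edgeR). The difference between plates for Sod1 was not called in the interaction test. Of 10 other NRF2 targets, 9 were tested; 4 fell and none rose without fibronectin, and 4 fell and 1, the exporter Abcc1, rose with it. The 4 were the same genes, the reductases Ptgr1, Cbr1 and Akr1b8 and the dehydrogenase Ugdh, with falls of 0.16 to 0.41 on the log2 scale, and the list medians were -0.23 and -0.26.

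**Figure D3:**
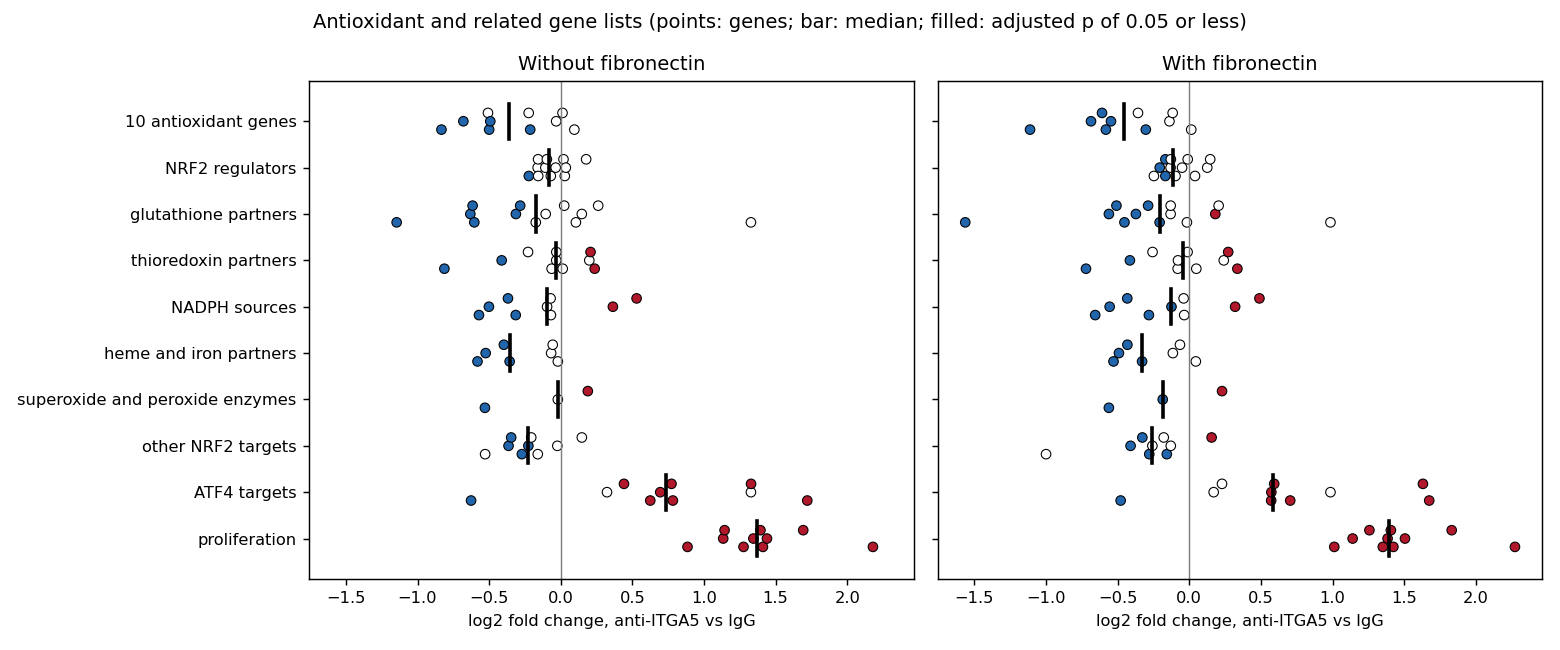
Log2 fold change of anti-ITGA5 against IgG (horizontal axis) for each tested gene of the 10 antioxidant genes and of related lists, without fibronectin at left and with it at right; filled points passed an adjusted p of 0.05 (blue, lower; red, higher), open points did not, and the bar is the list's median. The 10 antioxidant genes have medians of -0.36 and -0.45, and the medians of the ATF4 and proliferation lists lie above 0.

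The log2 fold changes of 12 regulators of NRF2 lay between -0.25 and 0.18 in the antibody comparisons. Nfe2l2, encoding NRF2, was at 59.5 FPKM ± 2.2 in IgG and 53.2 ± 2.42 in anti-ITGA5 without fibronectin (n = 3 each). Its log2 fold change was -0.16 (adjusted p = 0.0575, edgeR) there, and it fell by 0.17 (adjusted p = 0.00866) with fibronectin. Keap1 had log2 fold changes of -0.10 (adjusted p = 0.294) and -0.13 (adjusted p = 0.0711). The repressor Bach1 fell by 0.22 (adjusted p = 0.0128) and 0.17 (adjusted p = 0.0302). In all, 1 of 12 regulators fell without fibronectin, where 9.79% of all genes tested were called lower, and 3 of 12 with it, where 13.2% were. The third was the autophagy adaptor Sqstm1, and none rose. NRF2 is controlled chiefly through the stability of its protein, which RNA-seq does not measure.

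Other features of the libraries differed between the same groups. The summed FPKM of the 7 macrophage markers was 8880 to 9715 in IgG and 5991 to 7374 in anti-ITGA5 without fibronectin, and 9451 to 9656 and 7229 to 7368 with it. Of the 7, Lyz2, Mertk, Itgam and Cd68 fell in each antibody comparison. Of the markers of other cell types, 1 was called, the myeloperoxidase gene Mpo, which fell on fibronectin (log2 fold change -0.94, adjusted p = 0.0499, edgeR). Mpo had 3 to 21 counts per library, and most markers of other cell types had too few counts to be tested. All 10 proliferation genes rose in each, with median log2 fold changes of 1.37 and 1.40. The part of these differences in the results for the antioxidant genes was not tested. The 10 antioxidant genes together held 0.577% to 0.745% of the counts of an IgG library and 0.424% to 0.524% of those of an anti-ITGA5 library. Most of these counts were of Hmox1 and Prdx1, with 52658 and 31061 of 108809 in replicate 1 of IgG without fibronectin.

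Coated and uncoated plates were then compared among IgG-treated cells, to ask what the ligand adds when ITGA5 is free. None of the 10 genes was called, higher or lower, by edgeR, where 0.325% of 12925 genes were called higher and 0.124% lower. All 10 log2 fold changes were above 0, with a median of 0.15 against -0.000621 over all genes, and 7 had an unadjusted p under 0.05, as did 1266 of the 12925 genes in either direction. For 6 genes, Nqo1, Txnrd1, Srxn1, Gsr, Prdx1 and Me1, every fibronectin library lay above every uncoated library in FPKM, as did 8.80% of all genes tested. With counts scaled to the library total adjusted by TMM (CPM), Prdx1 and Me1 overlapped and the other 4 did not. Nqo1 had the largest value, 0.44 (SE 0.1, adjusted p = 0.0667), followed by Me1 at 0.28 (SE 0.118, adjusted p = 0.444). Prdx1 was at 0.20 (SE 0.0526, adjusted p = 0.138) and Srxn1 at 0.18 (SE 0.0412, adjusted p = 0.0799). The sign for Hmox1 (0.08, SE 0.0966, adjusted p = 0.846) turned without replicate 2 of IgG without fibronectin (-0.0315) or replicate 3 of IgG with fibronectin (-0.00931).

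How many genes passed in IgG depended on the processing. DESeq2 called 2 genes higher, Srxn1 (adjusted p = 0.00807) and Prdx1 (adjusted p = 0.00702), and limma called 0. Over all genes, in either direction, DESeq2 called 141, limma 5 to 17 and edgeR 58. Leaving out replicate 3 of IgG without fibronectin brought Nqo1 and Srxn1 past the threshold (adjusted p = 0.0458 each), and leaving out replicate 2 of IgG with fibronectin brought Nqo1 (0.0397) and Prdx1 (0.0155) past it, where 87 and 101 of all genes were called. Of the other lists, 1 glutathione gene was called higher, the peroxidase Gpx1 (0.30, adjusted p = 0.0178, edgeR).

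In anti-ITGA5-treated cells fibronectin gave no call among the 10 genes, and 0% of 12863 genes were called in either direction by edgeR. No member had an unadjusted p under 0.05, against 461 of all genes in either direction, and DESeq2 and limma called 0 of them. The median log2 fold change was 0.05, the largest value was that of Nqo1 at 0.17 (SE 0.182), and Gclc was the only gene below 0, at -0.05 (SE 0.0622). For Prdx1 alone the FPKM of the fibronectin libraries lay above that of the uncoated ones without overlap, as did 5.79% of genes, but the groups overlapped in CPM (1387 in the lowest fibronectin and 1396 in the highest uncoated library). Prdx1 had a log2 fold change of 0.11 (SE 0.058, adjusted p = 0.979).

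**Figure D4:**
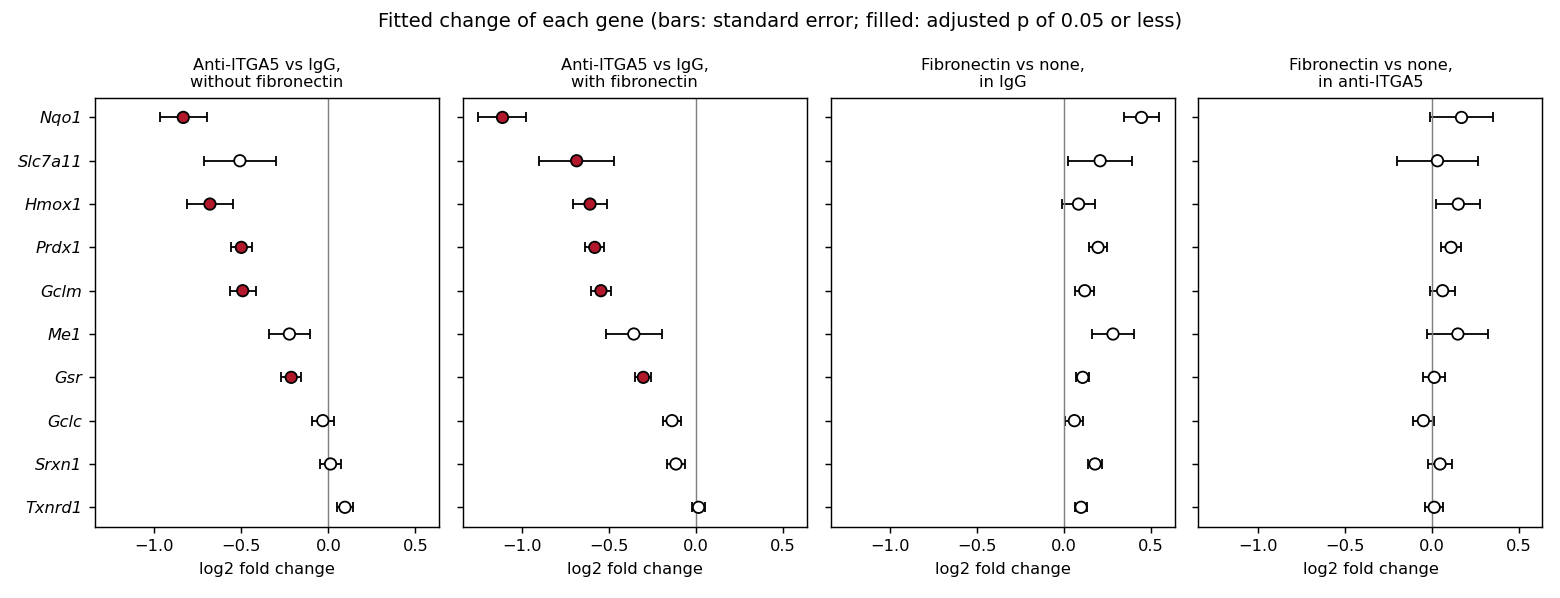
Log2 fold change (horizontal axes) of each gene, with bars of 1 SE from edgeR and filled points at an adjusted p of 0.05 or less, for the antibody without and with fibronectin and for fibronectin in IgG and in anti-ITGA5. Filled points are on the lower side only, 5 without and 6 with fibronectin, and the fibronectin effects in IgG are all above 0 with none filled.

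The difference between the antibody effects with and without fibronectin was tested over all 12 libraries as an interaction. None of the 10 genes was called, and none had an unadjusted p under 0.05 (386 of all genes did), against 0.0223% of 13455 genes called lower and 0% called higher by edgeR. DESeq2 and limma called 0 members too. The largest value was that of Nqo1, at -0.28 (SE 0.216, adjusted p = 0.9997), and the median over the 10 genes was -0.10. The larger fitted falls on fibronectin were thus within the error of the difference, and the wide standard errors leave room for differences of some size, above all for Slc7a11 (-0.18, SE 0.361) and Me1 (-0.14, SE 0.22). The comparisons of antibody and of coating share libraries and are not independent of each other.

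Profiles across the 12 libraries were compared between the 3 members whose group means ranged most and the 13455 genes that passed the filter, by the root mean square difference of centred log2 CPM. Nqo1, with a range of 1.30 between group means, was most like the collagenase gene Mmp8 (0.131), then Tmem119 (0.18) and A530064D06Rik (0.182). Hmox1, with a range of 0.77, was most like the adenylate kinase gene Ak4 (0.103), then B430306N03Rik and Dok3 (0.111 each). For Slc7a11, with a range of 0.71, the nearest were Thbs1 (0.165), Cd274 (0.175) and Mmp14 (0.182). These are descriptions of likeness over 12 libraries from 4 groups, with no test.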

How the data were processed

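The deposited data were 1 table of counts per gene and 1 table of FPKM per gene for the 12 libraries, made by the authors from poly(A) RNA (NEBNext Ultra, paired-end reads). Per the labels' processing notes, TopHat2 2.0.9, Cufflinks 2.1.1, HTSeq 0.6.1 and GRCm38.p6 were used; the strand setting and annotation release are not given in the sources used here, so overlapping genes may share reads. The deposited FPKM equalled the count divided by gene length and by 1 total per library.

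Counts were tested with edgeR 4.0.16 in R 4.3.3 (filterByExpr with minimum count 10 and total 15, TMM, quasi-likelihood test, Benjamini-Hochberg over all genes tested, called at 0.05), each comparison on its own 6 libraries and the interaction on 12. The SE is the log2 fold change divided by the square root of F. FPKM were given as mean ± SD with 2-sided exact permutation tests. The code was tested on simulated data.

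The members and lists were chosen with earlier results of these data known. Genes named were all 10 members, at most 4 per list called in both antibody comparisons (largest mean change), Nfe2l2, Keap1, Bach1, and the 3 nearest profiles of the 3 most variable members; Slc3a2, Sesn2, Abcc1, Gpx1, Sqstm1, Sod1, Hmox2, Txn1 and G6pdx were added after their values were seen. Alternatives were DESeq2 1.42.0, its size factors, total counts, other count filters, all 12 libraries in one fit, a replicate block, limma 3.58.1 on log2(FPKM + 1) or log2(FPKM + 0.1), adjusted p of 0.01, and each library left out.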

Additional observations from a re-analysis of the deposited data

How the results depend on the processing

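The number of members lower upon ITGA5 neutralization was 4 to 6 on uncoated plates and 5 to 8 on fibronectin when 1 library was left out. Limma on log2(FPKM + 1) without a filter gave 2 without and 4 with fibronectin; the cause was not tested. With fibronectin the number was 5 with DESeq2, with all 12 libraries in one fit and with filtered limma. With every gene of at least 1 count it was 6 without and 7 with fibronectin. Members higher on fibronectin in IgG, 0 in the edgeR test, numbered 2 with DESeq2, 3 with every gene of at least 1 count, and 0 to 2 with 1 library left out. The counts over all genes ran from 1220 to 3834 and from 1871 to 4538 in the antibody comparisons, where 2684 and 3565 were called as reported, from 5 to 416 for fibronectin in IgG (58), from 0 to 327 for fibronectin in anti-ITGA5 (0) and from 1 to 65 for the interaction (3).

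Over the 13455 genes that passed the filter, same-numbered libraries deviated together only weakly. The correlations were 0.0305 to 0.0849 and 0.0649 to 0.139 in the antibody comparisons, 0.0556 to 0.128 for fibronectin in IgG and -0.0242 to 0.128 in anti-ITGA5. In 6, 6, 6 and 2 of 6 libraries the best match was its own number, a hint from the data and not from the design. Among the members, Hmox1, Gclm, Gclc and Slc7a11 each kept the same order of replicates in every group, and the other members did not. With a replicate block, 6 members were lower without and 9 with fibronectin, and 4 were higher on fibronectin in IgG, where 2968, 4538 and 416 of all genes were called in either direction. The member added without fibronectin was Slc7a11 (-0.50, adjusted p = 0.00166), and those added with it were Gclc (0.0174), Srxn1 (0.0345) and Me1 (0.0156). Those higher on fibronectin in IgG were Nqo1 (edgeR with the block, adjusted p = 0.000488), Gclm (0.0225), Srxn1 (0.000702) and Prdx1 (7.84e-06). A block with all 12 libraries in one fit, chosen after seeing the data, gave 6 and 8 lower and 0 higher on fibronectin in IgG, with Slc7a11 called without fibronectin (adjusted p = 0.000182) and Srxn1 not called with it (0.127).

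Changes of sign were limited to members and comparisons with no call. With total counts in place of TMM they were Gclc without fibronectin (0.00817) and, for fibronectin in anti-ITGA5, Txnrd1 (-0.00332) and Gsr (-0.00301). With 1 library left out, antibody effects ran from -0.0859 to 0.00983 for Gclc and from -0.0289 to 0.0694 for Srxn1 without fibronectin, and from -0.0117 to 0.0342 for Txnrd1 with it. Fibronectin effects ran from -0.0315 to 0.198 for Hmox1 in IgG. In anti-ITGA5 they ran from -0.007 to 0.123 for Gclm, from -0.0863 to 0.000704 for Gclc, from -0.00728 to 0.0843 for Srxn1, from -0.272 to 0.23 for Slc7a11, from -0.04 to 0.0486 for Gsr and from -0.0517 to 0.326 for Me1. The interaction ran from -0.068 to 0.183 for Hmox1, from -0.125 to 0.00981 for Gclm, from -0.47 to 0.0294 for Slc7a11 and from -0.324 to 0.0388 for Me1. The members with the fewest counts were Nqo1 (91 to 410 per library), Me1 (101 to 231) and Slc7a11 (264 to 775), and the part of depth in their errors was not tested.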
